A study of Homo sapiens with 6 samples.

Results

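The set described here is 10 genes of the epithelial cell surface and its filament scaffold: the keratins KRT8, KRT18, KRT19, KRT20, KRT23 and KRT80, the adhesion molecules CDH1 and EPCAM, the tetraspanin CD151 and the hyaluronan receptor CD44. They were taken by gene symbol from the sense-strand rows of each library, 10 of 22984 such rows, and were chosen with their values in these libraries already known, so their levels are given as a description. All libraries were made from HCT116, a human colorectal carcinoma line, by Bru-seq, in which cells are fed bromouridine for 30 min and only the RNA made in that time is captured and sequenced. A value is therefore transcription over the gene and not the amount of mature mRNA or protein. Both controls received DMSO at 0.01% for 4 h, and each of the other 4 groups is 1 library: GSTO1 siRNA at 10 nM for 24 h (siGSTO1), the GSTO1 inhibitor C1-27 at 1 μM for 4 h or 24 h, and its inactive analogue C1-14 at 10 μM for 4 h. No library of a non-targeting siRNA or of DMSO at 24 h was analysed here, so knockdown, transfection and the longer culture cannot be told apart, and every comparison with DMSO shares the same 2 control libraries. The labels do not say whether these came from separate cultures, so their spread may be technical.

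Keratins are the intermediate filament proteins of epithelia and assemble as obligate pairs of a type I and a type II chain. KRT8 (type II) pairs with KRT18 or KRT19 (type I) in the single-layered epithelium of the gut, and KRT20 (type I) marks its differentiated cells. KRT23 is a further type I chain and KRT80 a type II chain. CDH1, or E-cadherin, holds neighbouring cells together at adherens junctions, EPCAM is a homophilic adhesion molecule of epithelial cells, CD151 is a tetraspanin that associates with laminin-binding integrins, and CD44 binds hyaluronan outside the cell and ezrin family proteins within it.

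The sequences just before the starts of CD44 and KRT20 are shown because these genes are the most and the least transcribed members. RefSeq's promoter table (GRCh38.p14) held entries for 3 of the 10 members, the third being KRT8, and each run below is the 250 bases before the annotated start, 5′ to 3′ on the gene's own strand, with capitals marking a GC box (GGGCGG on either strand).
CD44 (chr11:35138921-35139170, plus strand): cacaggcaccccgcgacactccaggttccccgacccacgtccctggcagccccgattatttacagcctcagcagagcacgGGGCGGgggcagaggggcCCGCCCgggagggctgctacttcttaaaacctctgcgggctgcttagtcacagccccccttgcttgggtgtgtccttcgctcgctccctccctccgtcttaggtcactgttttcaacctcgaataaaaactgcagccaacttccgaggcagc
KRT20 (chr17:40885243-40885492, minus strand): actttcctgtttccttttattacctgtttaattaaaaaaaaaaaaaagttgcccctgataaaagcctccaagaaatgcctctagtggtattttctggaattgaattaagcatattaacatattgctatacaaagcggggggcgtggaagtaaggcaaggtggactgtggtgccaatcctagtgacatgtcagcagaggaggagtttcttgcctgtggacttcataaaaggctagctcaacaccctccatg
The CD44 window held 2 GC boxes, a motif present in 42.6% of the 35116 windows in the table, together with 15 CpG dinucleotides and 62.4% G and C. The KRT20 window held no GC box, 2 CpG dinucleotides and 41.2% G and C, against medians of 11 and 58% over all windows. TATAAA (10.7% of windows), TGANTCA (6.57%), CACCTG (17.5%) and CATTCC (11.9%) were also searched on both strands and occurred in neither. These coordinates belong to GRCh38.p14, whereas every position below is in hg19, the build the files use.

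Sense reads over genes numbered from 18112861 in DMSO 1 to 36841146 in C1-27 at 24 h. RPKM (reads per kilobase of gene, scaled to the mapped reads of the library) summed over 8 epithelial markers ranged from 15.0 to 33.7, but 5 of these markers are members and make up 92.7% to 96.4% of the sum, so it is no independent check of the cells. Of the 3 others, CLDN7 ranged from 0.725 to 1.48 RPKM, VIL1 had 0 to 3 reads and CDX1 was at 0 in every library. Sums over fibroblast (5 genes), endothelial (4) and leukocyte (5) markers ranged from 0.0636 to 0.315, from 0.176 to 0.378 and from 0.412 to 0.570. The targeted gene, GSTO1 (chr10:106013952-106027222, plus strand), measured 3.51 and 3.72 RPKM in DMSO, 2.70 with siGSTO1, 3.78 and 4.21 with C1-27 at 4 h and 24 h and 3.82 with C1-14. The siGSTO1 library was thus the lowest, at 0.747 of the DMSO mean, a difference that edgeR did not call (log2 fold change -0.53 ± 0.27, SE). An siRNA acts on finished mRNA, so nascent RNA is not a direct check of the knockdown.

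Transcription of the members spanned a wide range in DMSO. CD44 stood highest at 8.95 ± 0.679 RPKM (SD, n = 2, as for each DMSO mean here), followed by KRT8 (7.71 ± 2.68), KRT18 (6.49 ± 2.38), KRT19 (4.21 ± 1.22) and EPCAM (3.36 ± 0.428). CD151 (0.980 ± 0.485) and CDH1 (0.401 ± 0.0703) were intermediate, and KRT80 (0.333 ± 0.0561), KRT23 (0.157 ± 0.0102) and KRT20 (0.0200 ± 0.00884) were lowest. CD44, KRT8 and KRT18 lay at percentiles 98.2, 97.9 and 97.4 of all genes, whereas KRT20 lay at percentile 37.5. Each of CD44, KRT8, KRT18, KRT19 and EPCAM overlapped its neighbour in this order in the range of the DMSO values, as did CDH1 and KRT80.

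**Figure D1:**
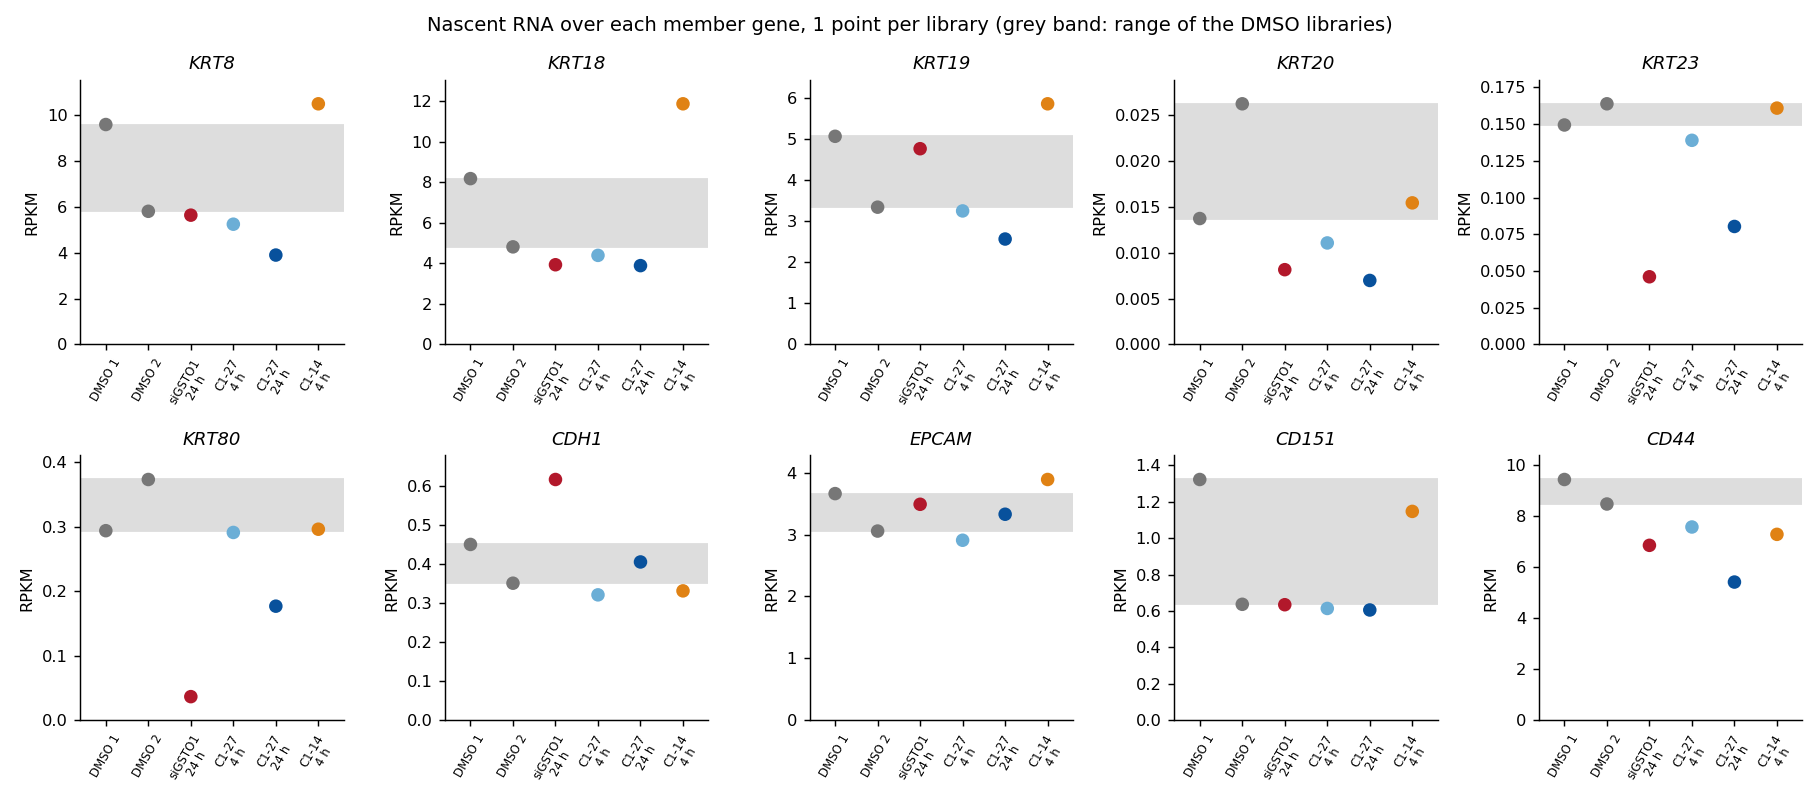
RPKM of each member (y axis, linear, from 0, scaled per gene) in each of the 6 libraries (x axis), 1 point per library with no error bar. The grey band spans the 2 DMSO libraries. With C1-27 at 4 h (light blue) all 10 points lie under the band, and with C1-14 (orange) KRT8, KRT18, KRT19 and EPCAM lie above it.

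The KRT8 and KRT18 partner genes were lower than in both controls in all libraries but that of C1-14. KRT8 (chr12:53290971-53298868, minus strand) gave 9.60 and 5.81 RPKM in DMSO, 5.65 with siGSTO1, 5.25 with C1-27 at 4 h, 3.90 with C1-27 at 24 h and 10.5 with C1-14. KRT18 (chr12:53342655-53346685, plus strand), whose start lies 43.8 kb from that of KRT8 on the opposite strand, gave 8.18 and 4.81 RPKM in DMSO, 3.93 with siGSTO1, 4.39 and 3.89 with C1-27 at 4 h and 24 h and 11.9 with C1-14. The siGSTO1 and C1-27 4 h values of KRT8 stood close to DMSO 2. In the order of either gene, the widest step between neighbouring libraries was that between DMSO 1 and DMSO 2. It was the only one larger than the DMSO SD (0.51 and 0.54 on the log2 scale), which a step between the 2 controls exceeds by arithmetic. For KRT18 the step from C1-14 to DMSO 1 was 0.537, just under its SD of 0.541.

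KRT8 fell with C1-27 at 24 h, to 0.506 of the DMSO mean (edgeR log2 fold change -1.03 ± 0.27, SE). This call rested on the settings: adjusted p (edgeR or DESeq2, Benjamini-Hochberg) ran from 0.0287 to 0.623 over 5 alternative fits and was lost in 4 of them, and without DMSO 1 the log2 fold change was -0.66. KRT18 measured 0.598 of the DMSO mean in the same library and 1.83 times the mean with C1-14 (log2 fold change 0.90 ± 0.29, SE, not called). The ratio of KRT18 to KRT8, per length, was 0.852 and 0.828 in DMSO, 0.696 with siGSTO1, 0.837 and 0.996 with C1-27 at 4 h and 24 h and 1.13 with C1-14. The partners thus kept nearly the same ratio in DMSO and C1-27 at 4 h, while the siGSTO1 library was lower and the C1-27 24 h and C1-14 libraries were higher.

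KRT19 (chr17:39679869-39684641, minus strand), the alternative type I partner of KRT8, differed from KRT18 in the siGSTO1 library. It gave 5.07 and 3.34 RPKM in DMSO, 4.77 with siGSTO1, 3.25 and 2.57 with C1-27 at 4 h and 24 h and 5.86 with C1-14. The siGSTO1 value lay between the controls, and KRT19 exceeded KRT18 only there, with a ratio of 1.21 against 0.494 to 0.740 in the other libraries. Against the DMSO mean it measured 1.13 with siGSTO1, 0.773 and 0.610 with C1-27 and 1.39 with C1-14, and edgeR called none of these. GENCODE 29 names 50 genes as KRT8 pseudogenes, 68 as KRT18 pseudogenes and 5 as KRT19 pseudogenes, so reads of these keratins may be shared with near-identical copies and their counts are uncertain to that extent.

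The largest difference among the members was that of KRT80 (chr12:52562780-52585784, minus strand). It gave 0.294 and 0.373 RPKM in DMSO, 0.0364 with siGSTO1, 0.291 and 0.177 with C1-27 at 4 h and 24 h and 0.296 with C1-14. Behind these stood 158 and 350 reads in DMSO and 22, 259, 187 and 236 in the treated libraries. KRT80 fell with siGSTO1 to 0.109 of the DMSO mean, 9.15-fold lower (edgeR log2 fold change -3.31 ± 0.58, SE), and was called in each of 5 alternative fits. The ratio of its reads to those of DMSO, relative to mapped reads, was 0.106 (95% exact interval 0.0657 to 0.162, for counting error only). It measured 0.530 with C1-27 at 24 h, below both controls and not called, and 0.873 and 0.888 in the C1-27 and C1-14 libraries at 4 h.

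KRT23 (chr17:39078952-39093836, minus strand) had the tightest controls of the keratins. It gave 0.149 and 0.164 RPKM in DMSO, 0.0461 with siGSTO1, 0.139 and 0.0803 with C1-27 at 4 h and 24 h and 0.161 with C1-14. The siGSTO1 library, with 18 reads, stood at 0.294 of the DMSO mean and the C1-27 24 h library, with 55, at 0.513. Its log2 fold changes there were -1.87 ± 0.66 and -1.02 ± 0.59 (SE), neither called by edgeR. KRT20 (chr17:39032141-39041495, minus strand), whose start is 52.3 kb from that of KRT23 on the same strand, had only 3 and 10 reads in DMSO, 2 with siGSTO1, 4 and 3 with C1-27 at 4 h and 24 h and 5 with C1-14. Its 95% exact intervals for the ratio to DMSO included 1 in every treatment, so no difference in KRT20 was detectable at this depth. More of its reads were on the antisense strand (37 over the 6 libraries) than on the sense strand (27).

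CDH1 and EPCAM, the junctional members, were not below both controls with siGSTO1 or with C1-27 at 24 h. The same held for KRT19 with siGSTO1, and differences between members were not tested. CDH1 (chr16:68771195-68869444, plus strand) gave 0.451 and 0.351 RPKM in DMSO, 0.617 with siGSTO1, 0.321 and 0.406 with C1-27 at 4 h and 24 h and 0.331 with C1-14. Its siGSTO1 value was the highest, 1.54 times the DMSO mean (log2 fold change 0.51 ± 0.26, SE, not called), and the C1-27 24 h value lay between the controls. EPCAM (chr2:47596287-47614167, plus strand) varied least, at 3.66 and 3.06 RPKM in DMSO, 3.49 with siGSTO1, 2.91 and 3.33 with C1-27 at 4 h and 24 h and 3.89 with C1-14. No step between neighbouring libraries in the order of EPCAM was larger than the DMSO SD (0.18 on the log2 scale).

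CD151 (chr11:832952-838835, plus strand) gave 1.32 and 0.637 RPKM in DMSO, 0.634 with siGSTO1, 0.614 and 0.605 with C1-27 at 4 h and 24 h and 1.15 with C1-14. Its folds of 0.648, 0.627 and 0.618 in the siGSTO1, C1-27 4 h and C1-27 24 h libraries arose against DMSO 1, since the same values were 0.996, 0.964 and 0.951 of DMSO 2. CD44 (chr11:35160417-35253949, plus strand) was the most deeply counted member, with 16815 to 32297 reads. It gave 9.43 and 8.47 RPKM in DMSO, 6.85 with siGSTO1, 7.57 and 5.41 with C1-27 at 4 h and 24 h and 7.28 with C1-14, so every treated library lay below both controls. C1-27 at 24 h was lowest, at 0.605 of the DMSO mean and 0.574 and 0.639 of the single controls (log2 fold change -0.78 ± 0.32, SE, not called).

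**Figure D2:**
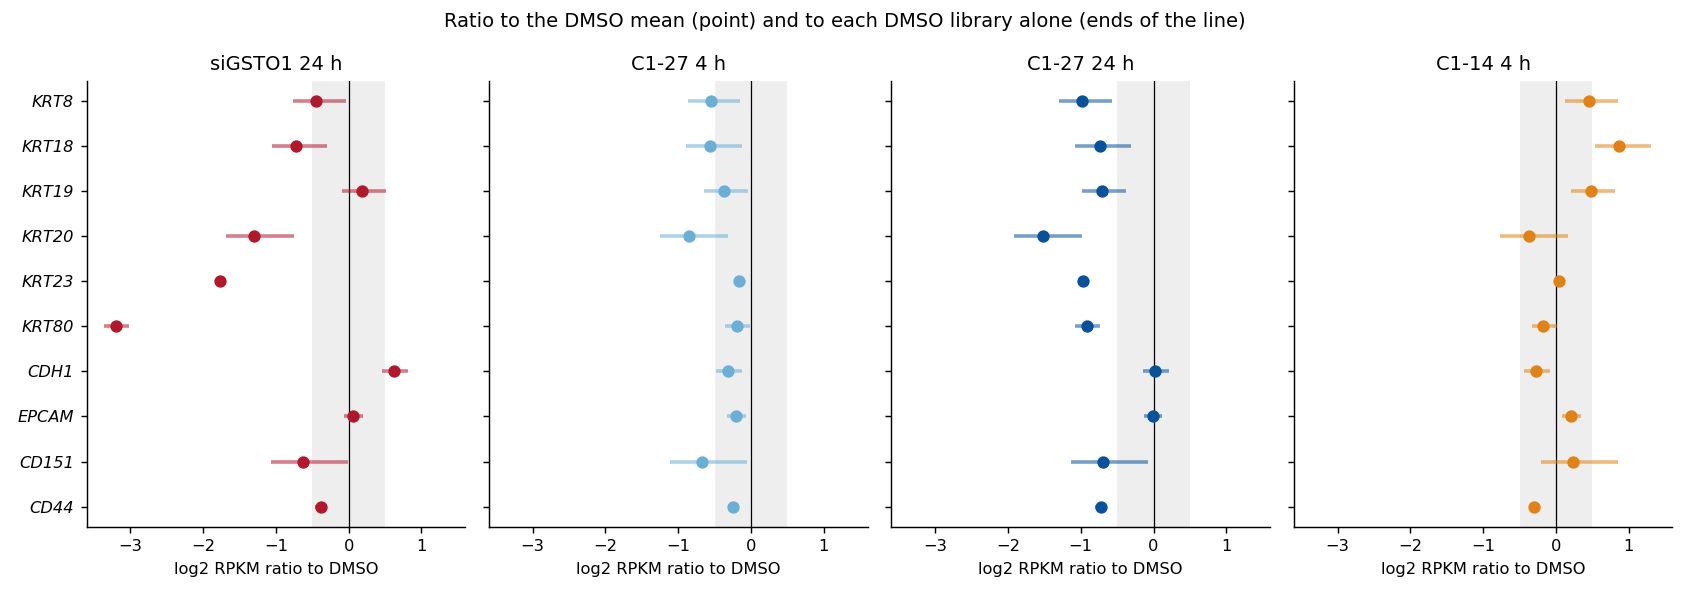
Log2 ratio of RPKM to DMSO for the 10 members (rows) in each treatment (panels). Points are ratios to the DMSO mean, lines run between the ratios to DMSO 1 and to DMSO 2, and grey marks ratios within 1.4-fold. KRT80 with siGSTO1 is farthest from 0, at -3.19, and the lines of KRT8, KRT18, KRT19 and CD151 are long because the controls differ.

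Counts of members past 1.4-fold were read beside the same share of all genes above 300 bp and 0.5 mean RPKM, the thresholds in the study's methods. Since these contrasts were known when the members were picked, the counts describe the choice. With siGSTO1, 1 of the 7 members that passed the filter was higher (CDH1) and 2 were lower (KRT18 and CD151), beside 10.4% (849) and 6.47% (526) of 8132 genes in those directions. TMM scaling, which moved the siGSTO1 median of all genes to -0.12 on the log2 scale, turned this split of all genes into 559 and 905 and the members' into 0 and 4 (KRT8, KRT18, CD151 and CD44). With C1-27 at 4 h, 0 of 6 were higher and 3 lower (KRT8, KRT18 and CD151), against 0.444% and 2.18% of 7662 genes. With C1-27 at 24 h, 0 of 6 were higher and 5 lower (KRT8, KRT18, KRT19, CD151 and CD44), against 3.22% and 3.46% of 7913 genes. With C1-14, 1 of 6 was higher (KRT18) and 0 lower, against 3.7% and 0.99% of 7780 genes. Against DMSO 2 only, that is without DMSO 1, the lower members became 0 with siGSTO1, 0 with C1-27 at 4 h and 2 with C1-27 at 24 h (KRT8 and CD44), and the higher members 1 with siGSTO1 (KRT19) and 4 with C1-14 (KRT8, KRT18, KRT19 and CD151). Of all genes under the same setting, 618, 30 and 174 were lower with siGSTO1, C1-27 at 4 h and C1-27 at 24 h, and 1376 and 574 were higher with siGSTO1 and C1-14. Against DMSO 1 only, the higher members with siGSTO1 became 0 and the higher genes 733. KRT20, KRT23 and KRT80 passed this filter in no comparison, and CDH1 only with siGSTO1. With a DMSO mean of 0.401 RPKM, CDH1 passed through its siGSTO1 value of 0.617, so it could be counted only as higher. Without DMSO 1 it left the count by failing the filter, although its log2 fold was then 0.81.

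Against each DMSO library singly, with no level filter, members were read beside the 15681 genes above 300 bp with reads in both controls. More than 1.4-fold lower than each were KRT20, KRT23 and KRT80 with siGSTO1 (beside 5.59% of genes), none with C1-27 at 4 h (5.22%), and KRT8, KRT20, KRT23, KRT80 and CD44 with C1-27 at 24 h (4.9%). KRT18 was more than 1.4-fold higher than each with C1-14 (3.43%). By position alone, all 10 members lay below both controls with C1-27 at 4 h, where 29.3% of genes did, and 8 did at 24 h (all but CDH1 and EPCAM), where 23% of genes did. With siGSTO1, 7 lay below both (26% of genes), CDH1 above both (47%) and KRT19 and EPCAM between. With C1-14, KRT8, KRT18, KRT19 and EPCAM lay above both controls (24.3% of genes), CDH1 and CD44 below both (28.2%), and the other 4 between them. Since the members were picked with these values known, nothing is read from the shares. With no level filter, the median log2 RPKM fold of the 10 members was -0.54 with siGSTO1 and 0.13 with C1-14. With C1-27 it was -0.35 at 4 h and -0.73 at 24 h. Over all genes above 300 bp, also without the filter, the medians were 0.15 with siGSTO1 and -0.014 with C1-14. With C1-27 they were -0.043 at 4 h and 0.048 at 24 h. Over genes past the filter they were -0.00070 with siGSTO1, -0.011 and 0.030 with C1-27 and 0.0066 with C1-14. RPKM is a share of each library's nascent RNA. A lower share can mean that fewer of the cells transcribed the gene or that each made less of its RNA, which cannot be told apart here, and it also moves with the output of other genes.

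In the edgeR fit of all 14430 genes with enough reads, 9 members were tested and KRT20 was not. KRT80 was the 1 member called with siGSTO1 (4.16% of all genes) and KRT8 the 1 called with C1-27 at 24 h (0.277%). No member was called by edgeR with C1-27 at 4 h (0.0139% of genes), with C1-14 (0.118%) or between the C1-27 times (0.104%), and DESeq2 called 0 in each. At an unadjusted p under 0.05, edgeR gave 4 members with siGSTO1 (KRT8, KRT18, KRT23 and KRT80), where 14.3% of all genes passed. The count was 1 with C1-27 at 4 h (KRT8, beside 0.721% of genes) and 5 at 24 h (KRT8, KRT18, KRT19, KRT80 and CD44, beside 3.74%). It was 1 with C1-14 (KRT18, beside 1.42%) and 0 between the C1-27 times (beside 2.46%). Here the single treated libraries are assumed to vary like DMSO, whose 2 libraries give the 1 residual degree of freedom.

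The controls themselves were far apart for the short members, and this bears on the ratios of these genes above. DMSO 2 was at 0.605 of DMSO 1 for KRT8, 0.588 for KRT18, 0.659 for KRT19 and 0.481 for CD151, so that 4 of the 6 members above 0.5 RPKM differed by 1.4-fold, where 19.1% of 7819 genes did in either direction. The lower value in DMSO 2 was shared by short genes as a class, though not by KRT20, where DMSO 2 was at 1.91 of DMSO 1. Genes of up to 10 kb had a median log2 ratio to the DMSO mean of 0.16 in DMSO 1, -0.15 in DMSO 2, 0.07 with siGSTO1, -0.11 and -0.03 with C1-27 at 4 h and 24 h and 0.10 with C1-14. The members of this class are KRT8, KRT18, KRT19, KRT20 and CD151. Relative to their class, KRT8 and KRT18 stood at -0.45 and -0.46 on the log2 scale with C1-27 at 4 h, within 1.4-fold. CD151 at -0.57 was the 1 member above the level filter still past it. With siGSTO1 the same step took KRT8 from -0.45 to -0.52, past 1.4-fold, and the lower members from 2 to 3 (KRT8, KRT18 and CD151). With C1-27 at 24 h KRT8, KRT18, KRT19 and CD151 stood at -0.95, -0.71, -0.68 and -0.66, and with C1-14 KRT18 stood at 0.77. KRT20, under the level filter with 2 to 10 reads per library, stood at -1.36 with siGSTO1. It stood at -0.75 and -1.49 with C1-27 at 4 h and 24 h and at -0.47 with C1-14. The part of this length trend in the members' values was not tested further.

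**Figure D3:**
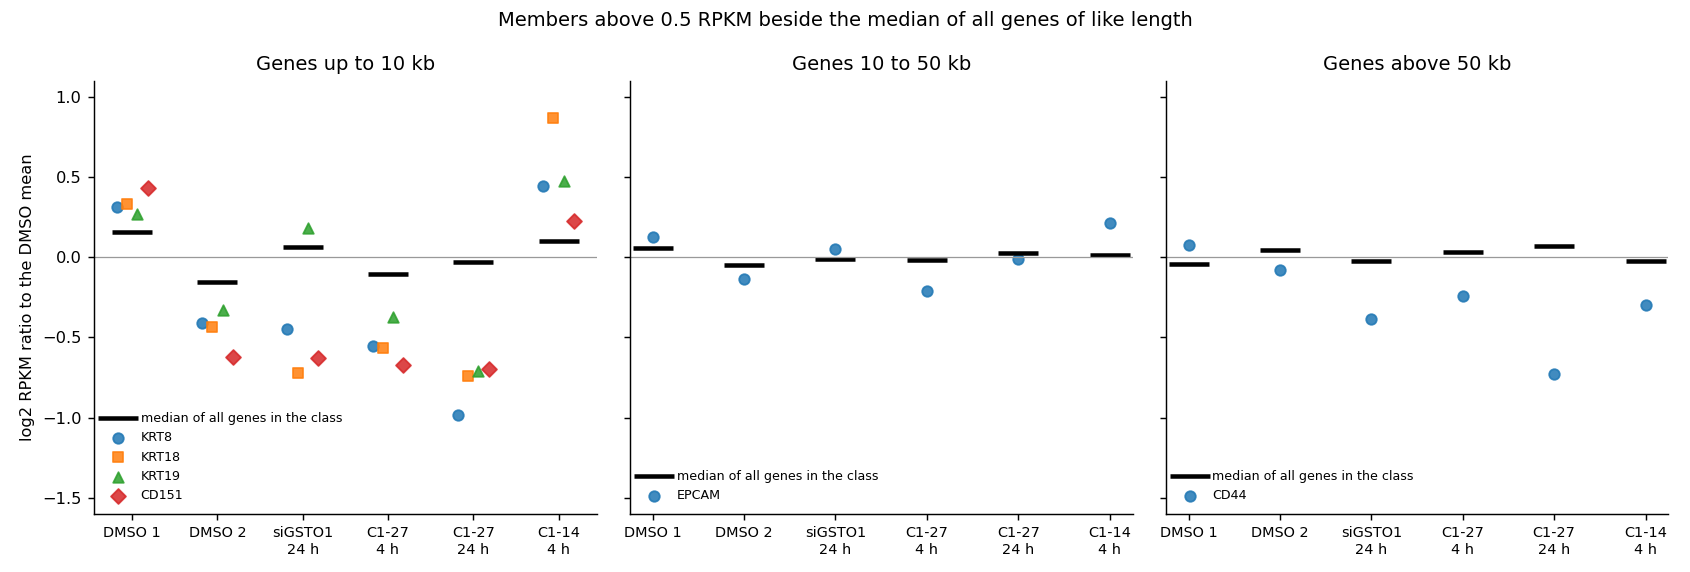
Log2 ratio of RPKM to the DMSO mean (y axis) in each library (x axis) for the 6 members above 0.5 RPKM in DMSO, in panels by gene length. Black bars are medians of all genes in the class and are points of reference with no error bar. In the short class the bars run from -0.15 in DMSO 2 to 0.16 in DMSO 1, and the 4 members lie on the same side of 0 as the bar in both controls, C1-27 at 4 h, C1-27 at 24 h and C1-14. With siGSTO1 the bar is at 0.07 and KRT8, KRT18 and CD151 lie below 0.

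Over time, the C1-27 values at 24 h were set against those at 4 h. The median edgeR log2 difference was -0.42 over the 9 members tested, beside 0.028 over all genes. Because the members were picked with these values known, nothing is read from this median. The ratio of 24 h to 4 h was 0.578 for KRT23, 0.607 for KRT80, 0.630 for KRT20, 0.715 for CD44, 0.743 for KRT8, 0.790 for KRT19, 0.885 for KRT18 and 0.986 for CD151. It was 1.26 for CDH1 and 1.14 for EPCAM. The KRT20 ratio rests on 4 reads at 4 h and 3 at 24 h. Each time is 1 library and the edgeR log2 differences of KRT23 (-0.87 ± 0.66, SE), CD44 (-0.56 ± 0.36) and CDH1 (0.26 ± 0.31) had errors of like size. At 4 h, C1-27 (1 μM) and C1-14 (10 μM) were given at different doses, so their values are side by side without a comparison: 5.25 and 10.5 RPKM for KRT8, 4.39 and 11.9 for KRT18, 3.25 and 5.86 for KRT19, and 7.57 and 7.28 for CD44.

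Antisense reads were few over most members, between 0.0240% and 13.4% of the sense reads for all but KRT23 (29.2%) and KRT20 (137%). KRT80 had 7 and 40 antisense reads in DMSO, 5 with siGSTO1, 34 and 37 with C1-27 at 4 h and 24 h and 39 with C1-14. With siGSTO1 its antisense reads, relative to mapped reads, were 0.260 of those in DMSO (95% exact interval 0.0807 to 0.651), lower like the sense reads, although the DMSO libraries themselves differed. For KRT8 the C1-14 library had 12 antisense reads against 24 and 25 in DMSO, a ratio of 0.453 (0.219 to 0.865). The labels state that the strand-specific step was applied to only some samples, without naming them here.

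By profile over the 6 libraries, the genes most like KRT80, one of the 2 members with the widest range, were BCAR3, NF2 and ANXA3, at distances of 0.214, 0.306 and 0.327 between centred log2(RPKM + 0.1) values among 7907 genes. NF2 encodes merlin, a relative of ezrin, BCAR3 a signalling adaptor and ANXA3 an annexin. BCAR3 (chr1:94027349-94147385) gave 3.01 and 3.46 RPKM in DMSO, 1.12 with siGSTO1, 3.17 and 2.03 with C1-27 at 4 h and 24 h and 2.93 with C1-14. All 3 thus had their lowest value with siGSTO1 and their next lowest with C1-27 at 24 h, as KRT80 did. The genes nearest to KRT20, RAB11FIP2, CERS6 and SEPT11 (distances 0.0682, 0.0771 and 0.0772), matched a profile made of 2 to 10 reads and nearly flat on this scale.

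Other genes of the same structures were followed in 7 lists chosen by role. Among the partners of the members' own proteins, 2 of 12 tested genes in the list of other surface adhesion and CD44 partners fell with siGSTO1. EZR, which links CD44 to actin, gave 27.5 and 35.9 RPKM in DMSO and 15.0 with siGSTO1 (edgeR log2 fold change -1.20 ± 0.38, SE, adjusted p = 0.0378), and NF2 gave 2.65 and 3.33 in DMSO and 1.13 with siGSTO1 (-1.53 ± 0.28, adjusted p = 1.6e-05). The call of EZR, but not that of NF2, was lost in each of the 4 alternative edgeR fits, and DESeq2 called both. RDX and MSN, the other ezrin relatives, had log2 fold changes of -0.17 and 0.05 and were not called.

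Of the junction lists, 1 of 12 adherens junction genes fell with siGSTO1. This was PVRL3 (nectin-3), at 1.27 and 3.45 RPKM in DMSO and 1.32 with siGSTO1 (edgeR adjusted p = 0.0225), a value that lies between the controls and a call lost in 3 of 5 alternative fits. CTNNA1, CTNNB1 and CTNND1, the catenins that bind CDH1, had log2 fold changes of -0.03, -0.01 and 0.40 there. Of 11 tetraspanins other than CD151, TSPAN15 rose, from 0.171 and 0.103 RPKM to 0.366 (log2 fold change 1.32 ± 0.39, adjusted p = 0.0205, not called by DESeq2). Of 12 desmosome and keratin-anchoring genes 0 were called by edgeR or DESeq2 with siGSTO1, and 0 had an unadjusted p under 0.05. Of 11 tight junction genes 0 were called by edgeR or by DESeq2, with 3 (TJP1, TJP3 and CLDN4) at an unadjusted p under 0.05. TJP3, at 3.92 times the DMSO mean (edgeR adjusted p = 0.0554), was called in each of the 4 alternative edgeR fits. Of 20 other keratins only KRT7, KRT10, KRT15 and KRT222 had enough reads, with log2 fold changes of -1.35, -0.64, -0.37 and 0.85 with siGSTO1, 0 called by either tool and 0 at an unadjusted p under 0.05.

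Of 17 tested regulators of the epithelial and mesenchymal states, siGSTO1 raised 2 and lowered 1. ESRP1, an epithelial splicing factor, went from 1.50 and 1.48 RPKM in DMSO to 2.72 (log2 fold change 0.76 ± 0.24, edgeR adjusted p = 0.0401). ELF3, an epithelial transcription factor, went from 0.323 and 0.355 to 1.28, 3.78 times the DMSO mean (adjusted p = 0.00915). CDH2, or N-cadherin, had 2 and 37 reads in DMSO and 0 with siGSTO1 (adjusted p = 0.0156), which is at least 4.34-fold lower than the DMSO mean if the limit is set at 3 reads in that library. This bound rests on DMSO 2, since the 2 reads of DMSO 1 are under that limit, and DESeq2 called 0 genes of this list. The call of ESRP1 was lost in 4 of the 5 alternative fits and that of ELF3 only with DESeq2.

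Across the 79 genes tested in these lists, edgeR called 7 with siGSTO1 (15 at an unadjusted p under 0.05, 2 by DESeq2), beside 600 of 14430 genes (2062 at that p, 215 by DESeq2). It called 0 with C1-27 at 4 h, C1-27 at 24 h or C1-14 and 0 between the C1-27 times, with 2, 6, 0 and 7 genes at an unadjusted p under 0.05 (104, 539, 205 and 355 of all genes) and 0 by DESeq2 in each. The list medians of the log2 fold change with siGSTO1 ran from -0.50 (other keratins) to 0.26 (state regulators), beside 0.02 over all genes. With C1-27 at 24 h the other keratins had a median of -0.61 and the remaining lists lay between -0.13 and 0.02, beside -0.0024 over all genes.

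**Figure D4:**
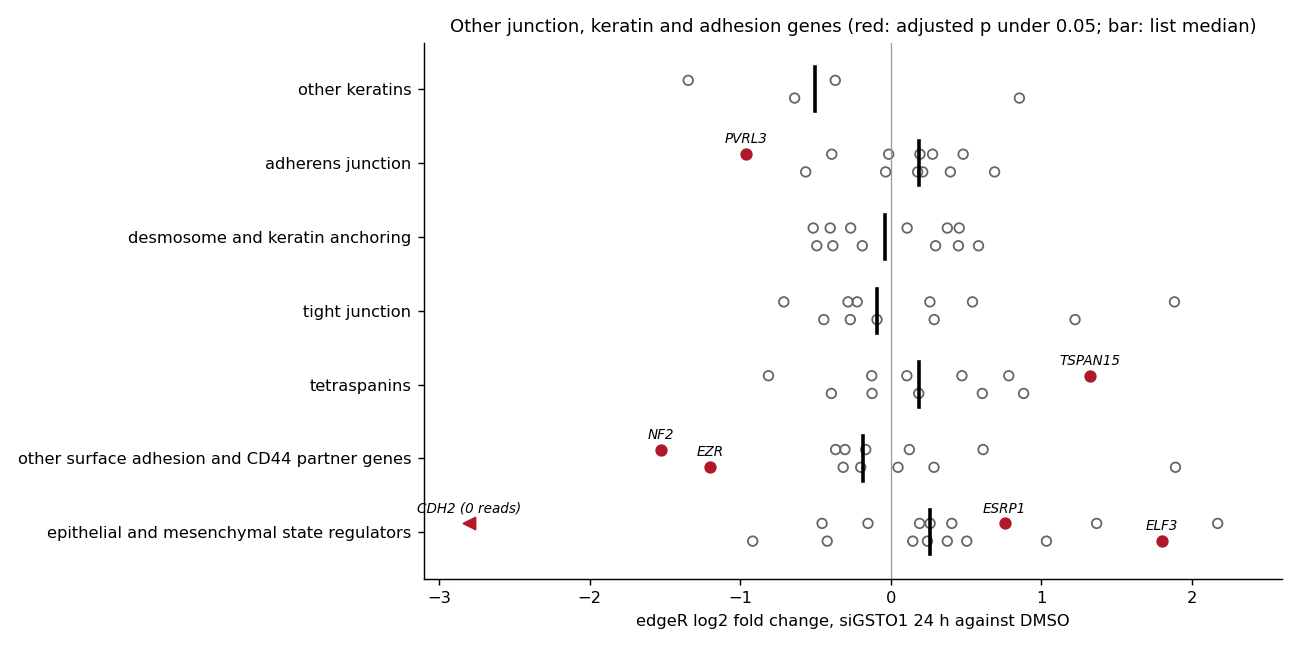
edgeR log2 fold change with siGSTO1 against DMSO (x axis) for the 79 tested genes of the 7 lists (rows), 1 point per gene. Red points have an adjusted p under 0.05, black bars are list medians, and the triangle at the left edge is CDH2, which had 0 reads with siGSTO1 and is not drawn to scale. The called genes lie on both sides of 0: NF2, EZR, PVRL3 and CDH2 lower, TSPAN15, ESRP1 and ELF3 higher.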

How the data were processed

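Nascent RNA of 6 HCT116 libraries in 5 groups was measured by Bru-seq. For each gene and strand the authors deposited an expected count (not always whole), a signal in counts per base and an RPKM value, counted over the gene span including introns. Per the labels' processing notes the build was hg19 and the tools included CASAVA 1.8.2, Bowtie 0.12.8, TopHat 1.4.1 and bedtools 2.16.2, whose settings are not given in the sources used here. Folds are the deposited RPKM over the mean of the 2 DMSO libraries, with the study's thresholds of 300 bp, 0.5 mean RPKM and 1.4-fold. Expected counts were rounded and tested with edgeR 4.0.16 (R 4.3.3; quasi-likelihood, TMM, at least 10 counts in 2 libraries, Benjamini-Hochberg over 14430 genes, adjusted p threshold 0.05, common dispersion 0.0381), a procedure first tested on simulated data; DESeq2 1.42.0 was an alternative. Ratios of reads carry 95% exact binomial intervals. The mapped reads behind RPKM, computed from the ratio of signal to RPKM, numbered from 23388426 to 46017053. The members, and the gene lists set by role, were chosen with earlier results of these data known. Named genes are all members, listed genes called by edgeR, the targeted gene and the nearest profiles of the 2 members of widest range. Listed genes were also named where the text states a tally of 5 or fewer genes. The catenins, RDX and MSN were added after their values were seen. The study's methods can be read as siGSTO1 for 4 h, whereas the label gives 24 h, which is used here.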

Additional observations from a re-analysis of the deposited data

Results flagged for a closer look

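The response of CDH1 to C1-27 had opposite signs at the 2 times. Its log2 RPKM fold over DMSO was -0.319 at 4 h and 0.0171 at 24 h. Each is 1 library, the 24 h value lay between the DMSO libraries, and the edgeR fit of the counts did not call the difference between the times (log2 0.26 ± 0.31, SE). The sign at 24 h turned under TMM scaling (-0.03), DESeq2 size factor scaling (-0.05), against DMSO 1 alone (-0.15) and relative to genes of the same length class (-0.06).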

How the results depend on the processing

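Over the alternatives, 340 of 360 RPKM folds of single members kept their size within the DMSO SD, 20 moved beyond it and 13 changed sign, all from log2 folds between -0.37 and 0.23. For the log2 fold changes of the fits, only the call was compared where an adjusted p existed. Only the size was compared where none existed, as without 1 DMSO library. On these terms 288 were unchanged and 5 moved in size beyond the DMSO SD. The other 4, all KRT8 with C1-27 at 24 h, lost the call, leaving 0 members called. Their log2 fold changes were -1.04, -1.04, -1.02 and -1.03. The adjusted p was 0.0662 with DESeq2 size factors in edgeR and 0.623 with DESeq2. It was 0.122 with edgeR without a count filter and 0.0579 with edgeR on only the groups compared. KRT20 was tested only without the count filter. Members past 1.4-fold lower with siGSTO1 (main 2) were 4 with TMM or DESeq2 size factor scaling, 1 with a pseudocount of 0.5 or a minimum of 1 RPKM and 5 without the filter (of all genes, main 526, these were 247, 401 and 2368). The 1 higher member, CDH1, became 0 under TMM, DESeq2 size factors, the pseudocount of 0.5 and the minimum of 1 RPKM. With C1-27 lower members were 1 at 4 h relative to the length class, an alternative chosen after seeing the data, and 8 at 24 h without the filter (of all genes 110 against 167, and 2462 against 274), and with C1-14 higher members were 2 under either scaling. Leaving out either DMSO library gave 0 to 3 lower and 0 to 1 higher members with siGSTO1, 0 to 4 lower with C1-27 at 4 h, 2 to 5 lower at 24 h and 1 to 4 higher with C1-14. Of all genes, 618 to 761 were then lower and 733 to 1376 higher with siGSTO1. With C1-27, 30 to 965 genes were lower at 4 h and 174 to 813 at 24 h, and with C1-14 322 to 574 were higher. List calls over the treatments (main 1, 0, 0, 1, 2 and 3) became 0 for the adherens junction (DESeq2 size factors, DESeq2, no count filter), 1 for the desmosome (PLEC, at 50 counts), 1 for the tight junction (TJP3, in all edgeR alternatives), 0 for tetraspanins and regulators (DESeq2) and 1 for surface partners (NF2, in all edgeR alternatives). The siGSTO1 median of all genes moved to -0.12 under TMM and -0.15 under DESeq2 size factors, turning 849 higher and 526 lower genes into 559 and 905 or 492 and 1097. DESeq2 called 215 genes against 600 by edgeR with siGSTO1, 0 against 2 and 18 against 40 with C1-27 at 4 h and 24 h, 2 against 17 with C1-14 and 5 against 15 between the times. No paired analysis was possible because each treated group has 1 library. The causes of these changes were not tested. Depth limited KRT20 (2 to 10 reads) and left KRT80 and KRT23 with 22 and 18 reads in the siGSTO1 library.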
